A study of Homo sapiens with 32 samples.

Results

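Cyclin-dependent kinase (CDK) inhibitors were followed through RNA-seq of Ewing sarcoma cell lines that had lost, or regained, the cohesin subunit STAG2. The 8 genes were taken by symbol, CDKN1A, CDKN1B and CDKN1C (the Cip/Kip family), CDKN2A, CDKN2B, CDKN2C and CDKN2D (the INK4 family) and CDKN3, out of 28278 gene symbols in the count tables and 60199 Ensembl genes in the knockdown table, and all 8 were listed in both. The 32 libraries came from A673, SK-N-MC and A4573, established lines grown from Ewing sarcoma family tumours. In A673, experiments 1 and 2 compared STAG2 knockout (KO) clones with controls, experiment 2 added KO clones of EZH2 or SUZ12, and experiment 3 compared STAG1 KO clones with controls. Experiment 4 compared transfection of an siRNA against STAG2 (siSTAG2) with control cells (siC). The paper describes the siC cells as mock transfected, and their sample titles call them A673 WT. Controls of experiments 1 to 3 were the parental line, with 1 library in each experiment, and a clone that carries an inducible Cas9 with unedited targets (WT clone), with 2, 2 and 1 libraries. By the paper's account, the A673 KO clones were made from this WT clone. There were 2 STAG2 KO libraries in experiment 1 and 3 in experiment 2, 3 libraries each of EZH2 KO, SUZ12 KO and STAG1 KO, each from a single edited clone, and 3 libraries each of siSTAG2 and siC. SK-N-MC was sequenced as WT and STAG2 KO, and A4573, which lacks STAG2, as the unmodified line (labelled WT) and as a line with STAG2 restored by a knock-in (KI), with 1 library each. All of these lines carry the EWS::FLI1 fusion. A clonal KO library also holds whatever else differs between clones, and where the labels do not state separate cultures a p-value measures only the spread between these libraries, which may be technical.

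CDK inhibitors slow the cell cycle in different ways. Cip/Kip proteins bind whole cyclin-CDK complexes, INK4 proteins bind CDK4 and CDK6 before a D-type cyclin can, and CDKN3 is a phosphatase that removes the activating phosphate of CDK2. Their loss or silencing is common in tumours, CDKN2A is among the genes most often deleted in Ewing sarcoma, A673 is known to lack CDKN2A, and CDKN1A and CDKN1C are among the genes reported to be held down by EWS::FLI1. EZH2 and SUZ12 are subunits of Polycomb repressive complex 2 (PRC2), which methylates lysine 27 of histone H3 at silenced genes, often at stretches rich in CG dinucleotides. STAG1 and STAG2 are alternative subunits of the cohesin ring.

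The 22 A673 clone libraries held 15734628 to 20663679 counts (median 18957601.5), the 4 SK-N-MC and A4573 libraries 29322507 to 32261248, and the 6 knockdown libraries 6852340 to 8184632 reads. Levels below are in CPM (counts scaled to the library total and by edgeR's TMM factors), or for the knockdown the normalised read count the authors deposited. STAG2 RNA stood at 255 to 358 CPM in the controls of experiments 1 and 2 and at 42.2 to 68.9 CPM in 4 of the 5 STAG2 KO libraries, whereas the library labelled STAG2ko 24 of experiment 1 held 183 CPM. EZH2 RNA fell from between 171 and 193 CPM in the controls of experiment 2 to between 28.3 and 54.9 CPM in EZH2 KO, and SUZ12 RNA from between 59.9 and 66.6 CPM to between 11.3 and 20.5 CPM in SUZ12 KO. STAG1 RNA was at 57.4 and 69.1 CPM in the controls of experiment 3, at 14.99 and 33.0 CPM in the libraries labelled STAG1ko 5 and 7, and at 61.1 CPM, within the control range, in the library labelled STAG1ko 1. Experiment 2 holds a library that stands apart, the library labelled STAG2ko 5, whose mean chi-square per gene against the other STAG2 KO libraries of that experiment was 105 and 131, while those differed from each other by 24.02. The WT clone libraries of experiment 1 were nearly alike (1.31, against 8.82 to 131 for other pairs within a group), and summing them left 0 of the CDK inhibitors called in STAG2 KO. Of 6 Ewing sarcoma markers, 4 (among them NR0B1 and NKX2-2) had at least 10 counts in every clone library and the summed level of the list was 363 to 935 CPM. CD99 was listed at 0 in every library and CCK had 3 to 536 counts in the clones. Leukocyte markers summed to at most 0.586 CPM, epithelial markers to at most 2.98 CPM and endothelial markers to 0.415 to 6.36 CPM in the clones.

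On GRCh38 (GENCODE 44) CDKN1A lies at chr6:36676460-36687337, CDKN1B at chr12:12685498-12722369, CDKN2C at chr1:50960745-50974634 and CDKN3 at chr14:54396849-54420218, all on the plus strand. CDKN1C lies at chr11:2883213-2885775, CDKN2D at chr19:10566460-10569059, and CDKN2A and CDKN2B side by side at chr9:21967752-21995301 and chr9:22002903-22009305, all on the minus strand. Exons of CDKN1A overlap the antisense gene DINOL, those of CDKN2A overlap CDKN2B-AS1 and those of CDKN2C overlap ENSG00000290102, and in these libraries, which do not keep the strand, reads from such partners cannot be told apart. RefSeq start-site windows (GRCh38.p14, 250 bases before to 50 after a start) were found for 7 of the 8 genes, 10 windows in all, and CDKN1C had none. The sequence upstream of the start that overlaps no annotated exon is shown for CDKN1A and CDKN2D, which rose in EZH2 KO below, and for CDKN1B, which did not pass the test there, with CG dinucleotides in capitals, on the gene's strand. They cover chr6:36678560-36678709 (plus), chr19:10569060-10569229 (minus) and chr12:12717118-12717367 (plus).
CDKN1A: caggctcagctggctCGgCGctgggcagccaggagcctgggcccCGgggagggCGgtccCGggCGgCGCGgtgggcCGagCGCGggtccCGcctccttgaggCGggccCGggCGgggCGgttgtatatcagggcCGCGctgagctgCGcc
CDKN2D: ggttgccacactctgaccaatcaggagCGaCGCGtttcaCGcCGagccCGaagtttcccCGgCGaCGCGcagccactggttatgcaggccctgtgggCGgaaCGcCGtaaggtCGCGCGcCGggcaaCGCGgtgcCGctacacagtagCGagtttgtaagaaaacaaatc
CDKN1B: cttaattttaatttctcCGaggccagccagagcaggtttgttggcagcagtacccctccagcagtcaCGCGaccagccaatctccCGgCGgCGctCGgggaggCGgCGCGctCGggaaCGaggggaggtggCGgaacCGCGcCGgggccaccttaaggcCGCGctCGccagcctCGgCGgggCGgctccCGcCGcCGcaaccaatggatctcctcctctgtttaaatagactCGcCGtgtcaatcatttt
These stretches hold 19 CG dinucleotides in 150 bases, 21 in 170 and 27 in 250. Over the whole 300-base windows the number was 29 for CDKN1A and CDKN1B and 36 for CDKN2D, against a median of 14 over all 35114 windows. The windows of CDKN2A (28 and 26), CDKN2B (25) and CDKN3 (28) were also above that median. Of the 3 windows of CDKN2C, which has several start sites, 1 had 37 CG dinucleotides and the others had 8 and 11. The letters TTTGAA, the core of the element that binds the DREAM repressor complex, were present on either strand in the window of CDKN3 alone, as they were in 15.2% of all windows. The ETS repeat GGAAGGAA (3.67% of windows) and the E2F letters TTTCCCGC (1.63%) and TTTGGCGC (0.652%) were in none of the 10 windows. The searched letters do not overlap each other, and a match describes these windows only.

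In A673 controls, 6 of the 8 genes were expressed and CDKN2A and CDKN2B were at 0. To compare genes, CPM was divided by the exonic length of each gene in kb. That length joins the exons of all annotated transcripts, so the order depends on the annotation. For CDKN1B it was 9.255 kb, and in CPM not divided by length CDKN1B stood above CDKN3 (mean 78.9 against 43.0 CPM). CDKN3 stood highest over the 8 control libraries (mean 23.5 CPM per kb, range 15.97 to 30.8), followed by CDKN2C (11.3, range 8.40 to 16.02), CDKN1A (9.29, range 3.85 to 15.96), CDKN1B (8.53, range 5.77 to 9.42), CDKN2D (5.33, range 3.56 to 7.50) and CDKN1C (2.21, range 0.424 to 3.85). Within libraries the order was firmer at some steps than at others. CDKN3 stood above CDKN2C in 8 of the 8 control libraries, with no overlap within any experiment, and CDKN1B stood above CDKN2D in 8 of 8 and CDKN2D above CDKN1C in 7 of 8. CDKN2C stood above CDKN1A in 5 of 8 and CDKN1A above CDKN1B in 3 of 8, so these neighbours did not differ beyond their spread. CDKN1A and CDKN1C varied most among control libraries and CDKN1B least, as shown in the plot of levels by library.

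**Figure D1:**
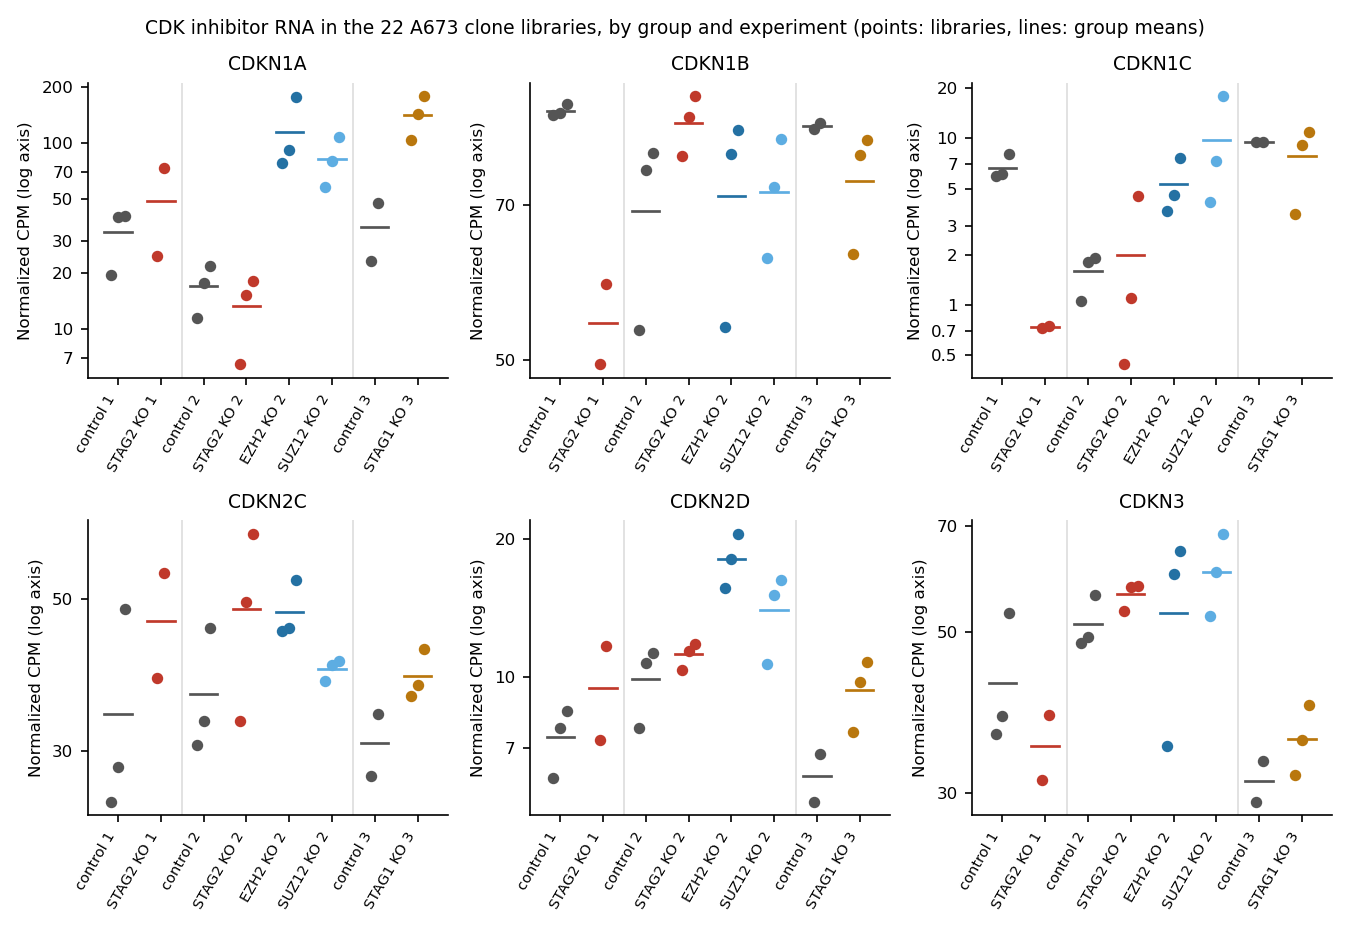
Level of the 6 expressed CDK inhibitors (vertical, log axis, TMM-scaled CPM) in the 22 A673 clone libraries, grouped by genotype and experiment (number after the group); each point is a library and each line a group mean. The 3 EZH2 KO, 3 SUZ12 KO and 3 STAG1 KO libraries lie above all of their own controls for CDKN1A, and the 2 STAG2 KO libraries of experiment 1, at 0.748 and 0.731 CPM, lie below theirs for CDKN1C.

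CDKN2A, which encodes the CDK4 and CDK6 inhibitor p16 and, from another first exon, the MDM2 inhibitor p14ARF, had 0 counts in all 22 A673 clone libraries, and so did CDKN2B, which encodes p15. Both were also at 0 in the 6 knockdown libraries. With a floor of 3 counts, 0 counts in a library allows a level of up to 0.145 to 0.191 CPM, for counting error only. Across these libraries neither gene could be tested, and no EZH2 KO or SUZ12 KO library had a read on either. Flanking genes were read in the same clones. MTAP, a methionine salvage enzyme next to CDKN2A, had 531 to 2556 counts (median 952) and KLHL9, which lies beyond it, 445 to 902 (median 623.5). The antisense gene CDKN2B-AS1 had at most 2 counts (median 1) and DMRTA1, on the other side, 1 to 28 (median 11). Between MTAP and DMRTA1, no gene named here had more than 2 counts in any A673 clone library, whatever the genotype. RNA counts do not tell a deleted gene from a silent one.

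SK-N-MC and A4573 differed from A673 and from each other at this locus. CDKN2A had 5350 counts in SK-N-MC WT and 5282 in its STAG2 KO, and 1974 counts in A4573 WT and 1679 in its STAG2 KI. CDKN2B had 139 and 79 counts in SK-N-MC WT and STAG2 KO and 0 in both A4573 libraries, where the exact Poisson upper limit is 3.69 counts. CDKN2B-AS1 had 179 and 221 counts in the SK-N-MC libraries and 32 and 36 in those of A4573. The counts do not say whether the CDKN2A reads belong to p16 or to p14ARF, and in A4573 they came with none on CDKN2B.

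**Figure D2:**
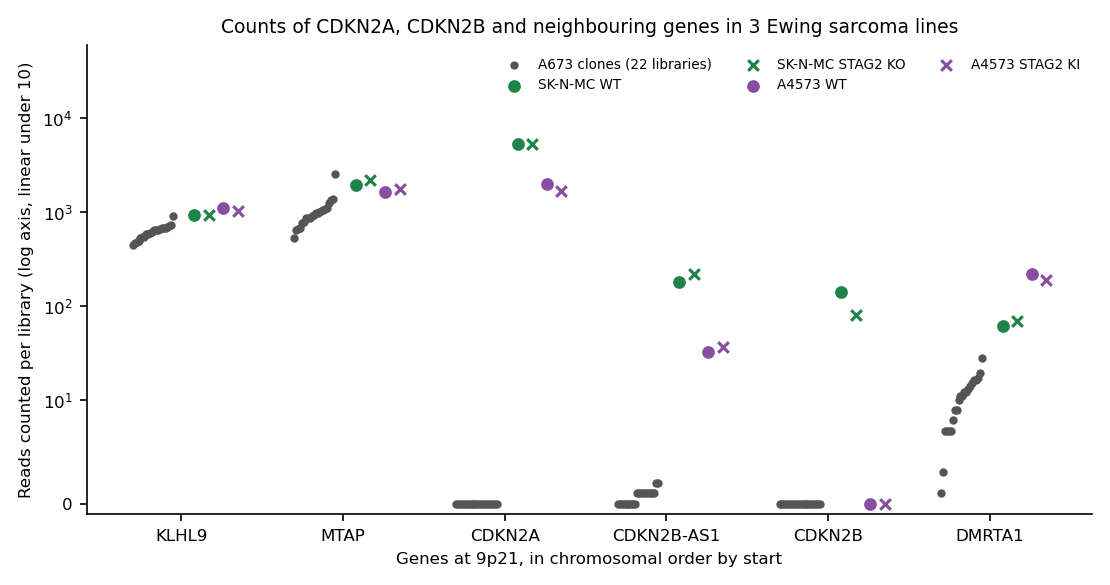
Reads counted per library (vertical, log axis that is linear under 10) on CDKN2A, CDKN2B and 4 neighbouring genes at 9p21, for the 22 A673 clone libraries (small points, sorted) and for WT (circles) and STAG2-edited (crosses) SK-N-MC and A4573. All 22 A673 libraries are at 0 for CDKN2A and CDKN2B while KLHL9 and MTAP keep 445 counts or more, and the A4573 libraries are at 0 for CDKN2B alone.

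In STAG2 KO clones of A673, no CDK inhibitor passed the test over both experiments together, though some intervals were wide. Of the 6 tested genes, 0 passed an adjusted p of 0.05 in edgeR's quasi-likelihood test, which held 5 KO and 6 control libraries and a term for the experiment. Of all 14215 genes tested, 12.2% passed (5.87% higher, 6.34% lower). The count at an unadjusted p under 0.05 was also 0, as was the count by DESeq2. The median log2 fold change of the 6 genes was 0.02, beside 0.01 for all genes. The number of genes whose KO and control libraries did not overlap was 0, against 8.19% of all genes. In bulk RNA, a difference in the share of cells that express a gene and one in RNA per cell cannot be told apart.

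CDKN1A, which encodes p21, was at 19.5 CPM in the parental library and 40.9 and 39.9 CPM in the WT clone of experiment 1, and at 24.7 and 73.6 CPM in STAG2 KO. In experiment 2 it was at 11.5 CPM in the parental library and 21.8 and 17.7 CPM in the WT clone, and at 18.1, 6.47 and 15.2 CPM in STAG2 KO. The groups overlapped in both experiments, and the highest and the lowest of all 11 libraries were both STAG2 KO. The log2 fold change was 0.08 ± 0.36 (SE, 95% interval -0.72 to 0.88, edgeR adjusted p = 0.934), and without the library at 73.6 CPM it was -0.36.

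CDKN1B, which encodes p27, was tightly held in the controls of experiment 1 (85.0, 87.2 and 85.5 CPM) and lower in both of its STAG2 KO libraries (58.9 and 49.5 CPM). In experiment 2 the controls were at 75.4, 78.4 and 53.4 CPM and the STAG2 KO libraries at 77.8, 84.7 and 88.6 CPM, with 2 of the 3 above every control. Over both experiments the log2 fold change was -0.11 ± 0.18 (SE, 95% interval -0.51 to 0.29, edgeR adjusted p = 0.760). In experiment 1 alone it was -0.66 (edgeR adjusted p = 0.0165) and in experiment 2 alone 0.33 (edgeR adjusted p = 0.287). The WT clone libraries of experiment 1 were nearly alike (mean chi-square 1.31), so the p-value of experiment 1 alone may understate the spread. The difference between the effects in both experiments was 0.95 ± 0.22 (SE, log2, edgeR adjusted p = 0.0795, unadjusted p = 0.00125), which misses the threshold over all genes.

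CDKN1C, which encodes p57 from an imprinted cluster at 11p15, varied widely between libraries. In experiment 1 it was at 5.91, 8.005 and 6.11 CPM in the controls and at 0.748 and 0.731 CPM in STAG2 KO, with 13 counts in each KO library. In experiment 2 the controls were lower, at 1.81, 1.91 and 1.05 CPM, and STAG2 KO was at 1.102, 4.49 and 0.442 CPM, so the groups overlapped. The 4.49 CPM belong to the library labelled STAG2ko 5, which stands apart from the others. The log2 fold change was -1.02 ± 0.82 (SE, 95% interval -2.82 to 0.77, edgeR adjusted p = 0.485). Without the library labelled STAG2ko 5 of experiment 2 it was -2.05 and passed the test (edgeR adjusted p = 0.00843), in a fit that called 4219 genes in place of 1736. In experiment 1 alone CDKN1C fell by 3.16 on the log2 scale (edgeR adjusted p = 0.00519) and in experiment 2 alone the value was 0.41 (edgeR adjusted p = 0.784). Here too the p-value of experiment 1 alone includes the nearly alike WT clone libraries. The effects differed by 3.52 ± 1.04 (SE, log2, edgeR adjusted p = 0.0872, unadjusted p = 0.00668), where 0% of 14616 genes passed for that difference. Different clones and different experiments cannot be told apart here.

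CDKN2C, which encodes p18, was at 48.3, 25.3 and 28.5 CPM in the controls and 54.6 and 38.5 CPM in the STAG2 KO libraries of experiment 1, and at 33.2, 30.7 and 45.4 CPM against 49.6, 62.4 and 33.2 CPM in experiment 2. The groups overlapped, with a log2 fold change of 0.44 ± 0.22 (SE, 95% interval -0.04 to 0.92, edgeR adjusted p = 0.231). CDKN2D, which encodes p19, had a log2 fold change of 0.27 ± 0.19 (SE, 95% interval -0.13 to 0.68, edgeR adjusted p = 0.395). Its levels were 6.03 to 8.45 CPM in the controls and 7.31 and 11.7 CPM in STAG2 KO in experiment 1, and 7.76 to 11.3 CPM against 10.4 to 11.8 CPM in experiment 2. CDKN3 was at 36.2 to 53.2 CPM against 31.3 and 38.4 CPM, and at 48.3 to 56.3 CPM against 53.4 to 57.9 CPM (log2 fold change -0.03, edgeR adjusted p = 0.919).

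CDKN1A rose in KO clones of either PRC2 subunit, CDKN2D passed the test in EZH2 KO and CDKN1C passed it in SUZ12 KO. In EZH2 KO, 2 of the 6 tested genes rose and 0 fell, beside 15.7% of all 15130 genes called (12% higher, 3.69% lower). In SUZ12 KO, 2 rose and 0 fell, beside 20.6% of all genes called (14.7% higher, 5.87% lower). The median log2 fold change of the 6 genes was 0.72 in EZH2 KO and 0.44 in SUZ12 KO, against 0.04 and 0.01 for all genes. The libraries of KO and control did not overlap for 3 of the genes in EZH2 KO (48.1% of all genes) and for 2 in SUZ12 KO (50.8%). The KO groups and STAG2 KO of experiment 2 share the same 3 control libraries. With the WT clone, from which the KO clones were made, as the only control, CDKN1A alone was called in each PRC2 KO.

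CDKN1A stood at 91.8, 177 and 78.1 CPM in EZH2 KO and at 58.0, 108 and 80.8 CPM in SUZ12 KO, against 11.5 to 21.8 CPM in the controls. All 6 PRC2-deficient libraries lay above every control and every STAG2 KO library of experiment 2. The rise was 7.25-fold in EZH2 KO (log2 2.86 ± 0.43, SE, edgeR adjusted p = 0.00135) and 5.09-fold in SUZ12 KO (log2 2.35 ± 0.42, SE, edgeR adjusted p = 0.00251). It passed the test in every alternative run for both, with log2 values of 2.40 to 3.07 and 2.10 to 2.55. The 0.51 by which EZH2 KO stood above SUZ12 KO on the log2 scale did not pass the test (95% interval -0.36 to 1.38, edgeR adjusted p = 0.999).

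CDKN1C stood at 3.69, 7.65 and 4.55 CPM in EZH2 KO and at 7.27, 17.9 and 4.13 CPM in SUZ12 KO, against 1.05 to 1.91 CPM in the controls, with no overlap. The rise in SUZ12 KO was 6.42-fold (log2 2.68 ± 0.78, SE, edgeR adjusted p = 0.0296). In EZH2 KO the log2 fold change was 1.82 ± 0.76 (SE, 95% interval 0.16 to 3.48), which missed the threshold (edgeR adjusted p = 0.130) but passed it in a fit of EZH2 KO and control libraries alone (edgeR adjusted p = 0.0124). The difference between both KOs was -0.86 (log2, EZH2 minus SUZ12, 95% interval -2.44 to 0.72, edgeR adjusted p = 0.999), so it is not shown that they differ. The highest SUZ12 KO library carries much of the call. Without it the log2 fold change was 1.91 (edgeR adjusted p = 0.140), and leaving out either WT clone library or the parental library also ended the call (2.77, 2.82 and 2.45, adjusted p = 0.0869, 0.0837 and 0.105).

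CDKN2D stood at 15.7, 20.6 and 18.1 CPM in EZH2 KO, at 10.7, 16.3 and 15.1 CPM in SUZ12 KO and at 7.76 to 11.3 CPM in the controls. EZH2 KO did not overlap the controls and SUZ12 KO did. It rose 1.94-fold in EZH2 KO (log2 0.96 ± 0.23, SE, edgeR adjusted p = 0.0162), and the value in SUZ12 KO was 0.57 ± 0.23 (SE, 95% interval 0.07 to 1.07, edgeR adjusted p = 0.0997), which DESeq2 called (adjusted p = 0.0470). The call in EZH2 KO was lost without EZH2 KO library 2, without WT clone library 1 and without the parental library (log2 0.84, 0.99 and 0.79, edgeR adjusted p = 0.0598, 0.0553 and 0.0733).

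CDKN2C was at 45.0, 53.3 and 45.4 CPM in EZH2 KO and 40.1, 38.0 and 40.7 CPM in SUZ12 KO, against 30.7 to 45.4 CPM in the controls (log2 0.48 ± 0.22 and 0.19 ± 0.22, SE, edgeR adjusted p = 0.164 and 0.570). CDKN1B and CDKN3 did not pass either test. CDKN1B was at 71.4 ± 15.5 CPM in EZH2 KO and 72.0 ± 9.19 CPM in SUZ12 KO against 69.1 ± 13.7 CPM (SD, n = 3 each), with edgeR adjusted p of 0.654 and 0.653. CDKN3 was at 53.2 ± 16.04 CPM and 60.4 ± 7.84 CPM against 51.3 ± 4.39 CPM (SD, n = 3 each), with edgeR adjusted p of 0.664 and 0.305. Between EZH2 KO and SUZ12 KO, 0 of the 6 genes differed, beside 0.00661% of all genes (edgeR). At an unadjusted p under 0.05 there were 629 genes and none of the 6, and DESeq2 called 22 genes and none of the 6.

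Set directly against STAG2 KO in the same fit of experiment 2, the mean of EZH2 KO and SUZ12 KO was 7.46-fold higher for CDKN1A (log2 2.90 ± 0.41, SE, edgeR adjusted p = 0.000414). This was 1 of 6 genes called, beside 29.7% of all genes, and the only 1 of the 6 whose groups did not overlap (26.8% of all genes). CDKN1C (1.83 ± 0.69, SE, log2, edgeR adjusted p = 0.0647) and CDKN2D (0.52 ± 0.20, SE, log2, edgeR adjusted p = 0.0707) missed the threshold. DESeq2 called both (adjusted p = 0.0135 and 0.0259), and without the library labelled STAG2ko 5 the CDKN1C value was 3.23 (edgeR adjusted p = 0.00304).

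**Figure D3:**
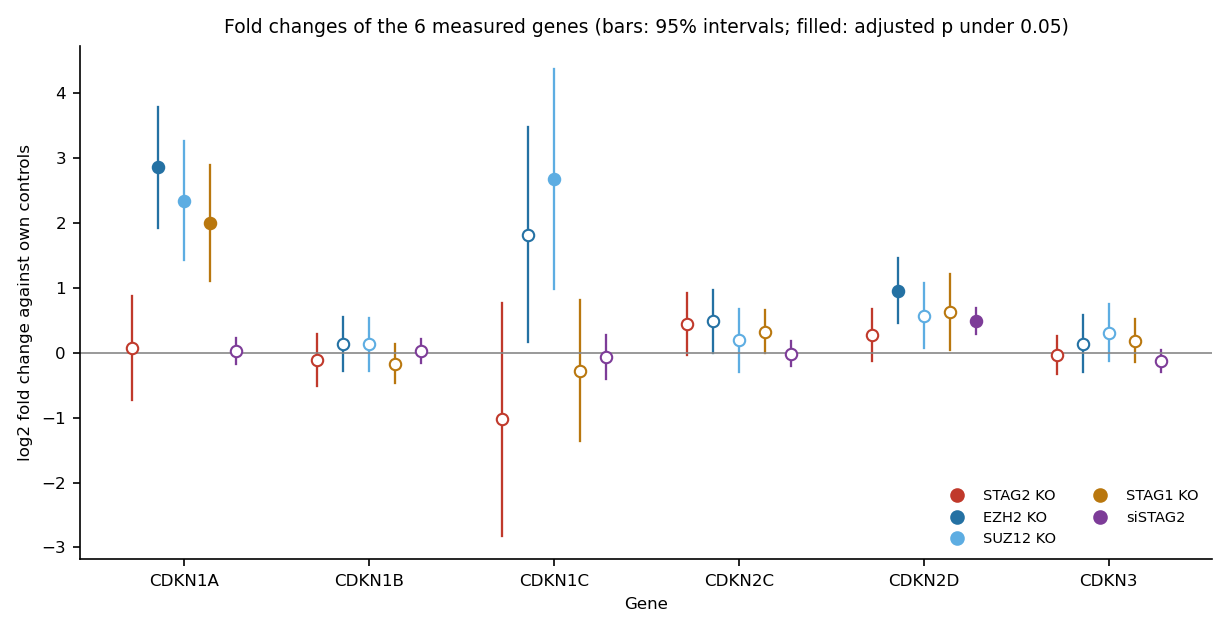
Log2 fold change (vertical) of the 6 expressed genes against the controls of the same comparison, for STAG2, EZH2, SUZ12 and STAG1 KO clones (edgeR) and siSTAG2 (limma); bars are 95% intervals and filled points passed the test (adjusted p under 0.05). Filled points are CDKN1A in EZH2, SUZ12 and STAG1 KO (2.86, 2.35 and 1.999), CDKN1C in SUZ12 KO (2.68), and CDKN2D in EZH2 KO (0.96) and siSTAG2 (0.49).

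In STAG1 KO clones CDKN1A was the member that rose. It stood at 105, 144 and 179 CPM, against 23.4 CPM in the parental library and 47.8 CPM in the WT clone, with no overlap. The rise was 3.998-fold (log2 1.999 ± 0.37, SE, edgeR adjusted p = 0.0405, n = 3 and 2 libraries), and 1 of 6 genes was called beside 5.27% of 14373 genes (2.77% higher, 2.5% lower). Without the library labelled STAG1ko 1, whose STAG1 RNA was at the control level, it was 2.19 (edgeR adjusted p = 0.0277). The call did not hold without the library labelled STAG1ko 5 (2.003, edgeR adjusted p = 0.0722) or 7 (1.81, adjusted p = 0.0794), nor when either control library was left out (2.61 without the WT clone and 1.57 without the parental library, adjusted p = 0.122 and 0.255), where 1 control remained and 0 genes of the whole table were called.

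The groups of experiment 3 did not overlap for 4 of the 6 genes, beside 46.4% of all genes. CDKN2D was at 10.8, 7.58 and 9.75 CPM in STAG1 KO against 6.79 and 5.36 CPM (log2 0.62, 95% interval 0.04 to 1.21, edgeR adjusted p = 0.177). CDKN2C was at 36.1, 37.6 and 42.4 CPM against 34.1 and 27.6 CPM (log2 0.33, edgeR adjusted p = 0.203), and CDKN1B was lower, at 62.9, 78.0 and 80.5 CPM against 83.6 and 82.6 CPM (log2 -0.17, edgeR adjusted p = 0.433). None of these differences passed the test. CDKN1C was at 3.54, 10.9 and 9.18 CPM against 9.56 and 9.47 CPM (log2 -0.27, edgeR adjusted p = 0.744), and the low value is that of the library labelled STAG1ko 1. CDKN3 was at 35.6 CPM on average (39.6, 31.8 and 35.4 CPM) against 29.2 and 33.2 CPM (edgeR adjusted p = 0.442).

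The effect of STAG2 KO on CDKN1A lay below that of STAG1 KO by 1.93 on the log2 scale (95% interval -3.32 to -0.53, unadjusted p = 0.0102), and with an edgeR adjusted p of 0.105 the difference missed the threshold over all genes. None of the 6 genes was called for this difference, beside 6.01% of 15041 genes (2.27% higher, 3.74% lower). DESeq2 called CDKN1A (adjusted p = 0.0320), and so did edgeR without the library labelled STAG2ko 24 (-2.40, adjusted p = 0.0205).

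After knockdown of STAG2, whose normalised read count went from between 992 and 1090 in siC to between 144 and 180 in siSTAG2, CDKN2D was the only CDK inhibitor called. It was at 173 to 185 normalised reads in siC and at 235, 267 and 249.2 in siSTAG2, with means of 178 ± 6.19 and 250 ± 15.9 (SD, n = 3 each) and no overlap. The rise was 1.40-fold on the log2(value + 1) scale (log2 0.49 ± 0.098, SE, limma adjusted p = 0.000631). It was called in each of the 12 alternatives, with log2 values of 0.44 to 0.53. This is 1 of 6 genes tested, beside 20.5% of 12060 genes called (9.54% higher) and 35% of genes without overlap. CDKN1A was at 270 ± 20.2 against 265 ± 26.4 normalised reads (SD, n = 3 each, limma adjusted p = 0.893), and CDKN1C at 83.2 ± 17.4 against 86.3 ± 10.8 (limma adjusted p = 0.831). CDKN1B, CDKN2C and CDKN3 had limma adjusted p of 0.849, 0.949 and 0.290. CDKN3 was at 557 ± 24.4 normalised reads in siSTAG2 and 612 ± 77.8 in siC.

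In the isogenic pairs with 1 library a line there is no replicate check, and the differences below are those between these libraries, with intervals that cover counting error only. STAG2 RNA was at 293 CPM in SK-N-MC WT and 184 CPM in its KO, and at 34.1 CPM in A4573 WT and 86.9 CPM in its KI. CDKN1A was lower in the library without STAG2 in both pairs. It had 393 counts (12.9 CPM) in SK-N-MC STAG2 KO and 911 (27.6 CPM) in WT, and 187 counts (6.21 CPM) in A4573 WT, which lacks STAG2, and 446 (14.2 CPM) in A4573 STAG2 KI. The log2 differences, without minus with STAG2, were -1.10 (95% counting interval -1.28 to -0.93) and -1.19 (-1.45 to -0.94). More than a 2-fold difference was found for 2 of the 8 genes in SK-N-MC, beside 21.6% of 16413 genes (10.2% higher and 11.4% lower without STAG2), and for 3 of the 7 measured in A4573, beside 21.8% of 16124 genes (7.76% higher, 14.1% lower). The median log2 difference of the genes was -0.25 in SK-N-MC and 0.34 in A4573, against -0.01 and 0.00 over all genes.

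CDKN2C differed most in A4573. It had 3352 counts (111 CPM) without STAG2 and 709 (22.6 CPM) with STAG2 restored, a 4.92-fold difference (log2 2.30, counting interval 2.18 to 2.42). In SK-N-MC the same gene had 7177 and 7524 counts, a log2 difference of 0.04. CDKN3 was higher without STAG2 in A4573 (1075 against 532 counts, log2 1.07, interval 0.92 to 1.23) and lower without it in SK-N-MC (904 against 2021 counts, log2 -1.05, interval -1.17 to -0.94). In A4573, 14 of 16 proliferation genes were also more than 2-fold higher without STAG2 (median log2 difference 1.66), as were 7 of 12 CDKs and cyclins (median 1.13, with 2 lower), while in SK-N-MC 0 of the 16 proliferation genes passed 2-fold (median -0.23). The part of these differences in the values of the CDK inhibitors was not tested.

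CDKN1C went the other way from CDKN1A in SK-N-MC, with 1116 counts (36.5 CPM) in STAG2 KO and 627 (19.03 CPM) in WT (log2 0.94, interval 0.80 to 1.08), and had 1058 and 872 counts without and with STAG2 in A4573 (log2 0.34). CDKN2B had 79 and 139 counts in SK-N-MC (log2 -0.69, interval -1.12 to -0.30). CDKN2D differed by -0.48 in SK-N-MC (566 against 852 counts) and by 0.47 in A4573 (188 against 141 counts). CDKN1B (log2 -0.01 and 0.34) and CDKN2A (0.09 and 0.29) differed least over both pairs. Leukocyte markers reached 58.3 summed CPM in these 4 libraries, with 99 to 1776 counts of PTPRC in SK-N-MC, and their part in the SK-N-MC values was not tested.

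**Figure D4:**
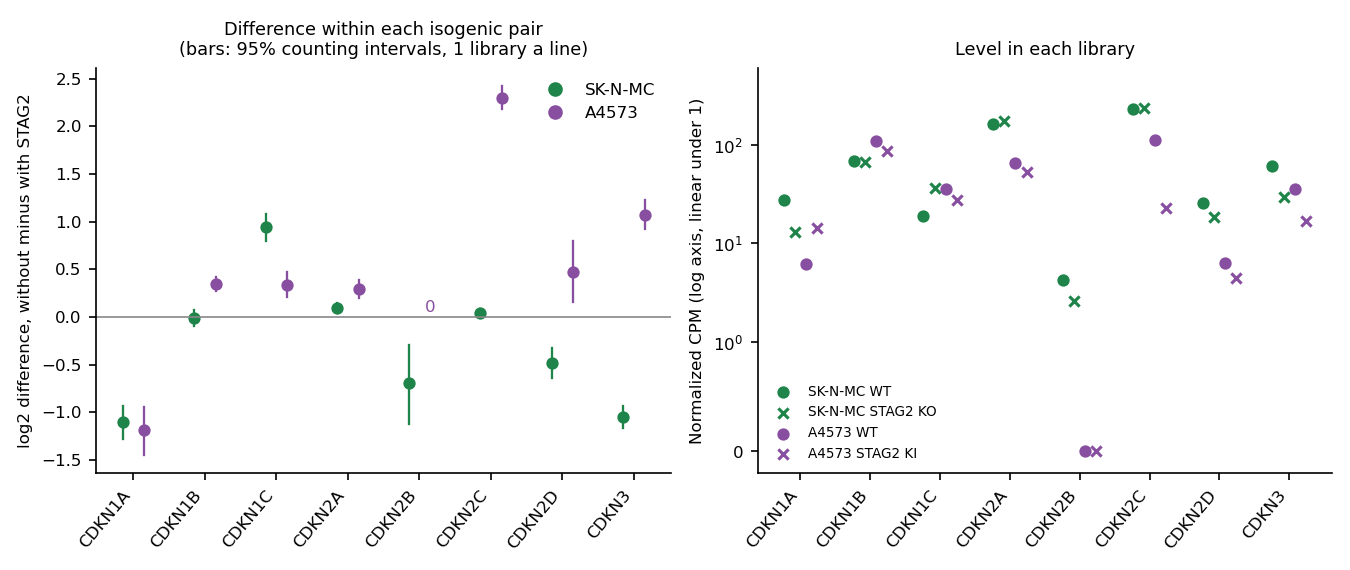
Left, log2 difference of the library without STAG2 minus the library with STAG2 (vertical) for each CDK inhibitor in SK-N-MC and A4573, with bars for 95% counting intervals and 1 library a line, and with 0 marking CDKN2B, which has no read in A4573. Right, TMM-scaled CPM in each library (log axis, linear under 1). CDKN1A is at -1.10 and -1.19, CDKN2C reaches 2.30 in A4573 alone, and CDKN3 has opposite signs.

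The controls themselves were not alike. Over the 8 control libraries of A673, the WT clone was 1.92-fold above the parental line for CDKN1A (log2 0.94 ± 0.11, SE, edgeR adjusted p = 0.00359 with the experiment as a term) and at 0.665 of it for CDKN2C (log2 -0.59 ± 0.11, SE, edgeR adjusted p = 0.0259). These are 2 of 6 genes, beside 2.75% of 14521 genes (1.74% higher, 1.01% lower). For CDKN1A the WT clone was the higher in each of the 3 experiments. For CDKN2C the groups did not overlap (3.3% of all genes), but the call was lost without 6 of the 8 libraries (edgeR adjusted p = 0.0577 to 0.104). Control libraries also moved between experiments. Relative to experiment 1, those of experiment 2 were lower by 2.08 (log2) for CDKN1C, by 0.95 for CDKN1A and by 0.33 for CDKN1B (edgeR adjusted p = 9.87e-05, 0.000232 and 0.0286), where 54.1% of all genes differed. Relative to experiment 2, those of experiment 3 were higher for CDKN1C (2.65) and CDKN1A (1.18) and lower for CDKN2D (-0.71) and CDKN3 (-0.73), with edgeR adjusted p of 2.29e-05, 6.67e-05, 0.0247 and 0.00444 and 61.8% of genes called. Between experiments 1 and 3 none of the 6 genes differed, beside 14.6% of all genes. The rise of CDKN1A in PRC2 KO is thus measured against its lowest controls, and at 58.0 to 177 CPM the KO libraries also lie above all 8 controls, which reach 47.8 CPM. For CDKN1C the PRC2 KO libraries, at 3.69 to 17.9 CPM, run from below to above the range of the controls of experiments 1 and 3 (5.91 to 9.56 CPM).

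Genes around the inhibitors were read from lists of pathway members. In STAG2 KO the D-type cyclins moved apart, with CCND1 lower (log2 -0.59, edgeR adjusted p = 0.0105) and CCND3 higher (1.21, edgeR adjusted p = 0.0291), 2 of 11 CDKs and cyclins tested. The same 2 genes were called in the same directions after knockdown (-0.20 and 0.38, limma adjusted p = 0.0105 and 0.0117), where CDK2 rose (0.20) and CDK1 fell (-0.19) too. None of 16 proliferation genes was called in STAG2 KO (median log2 -0.08), while after knockdown 3 of 16 fell, TOP2A, MCM6 and MKI67 (-0.22, -0.21 and -0.17, limma adjusted p = 0.00823, 0.0188 and 0.0343). Of 13 pocket proteins and E2F factors, E2F5 rose in STAG2 KO (0.66, edgeR adjusted p = 0.00504), and E2F3, E2F6 and E2F4 rose after knockdown (0.33, 0.39 and 0.27, limma adjusted p = 0.000257, 0.004 and 0.0297). The share of all genes called was 12.2% in STAG2 KO and 20.5% after knockdown, and beside these the counts show nothing particular to the lists.

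CCND2, a D-type cyclin that INK4 proteins compete with, had 0 to 3 counts in the controls of experiment 2 and 7 to 14 in STAG2 KO, but 674 to 1352 in EZH2 KO and 991 to 1408 in SUZ12 KO. It was the 1 gene of 12 CDKs and cyclins that rose in both PRC2 KOs (edgeR adjusted p = 3.27e-06 and 3.08e-06), and CDK6 fell in SUZ12 KO (-1.04, edgeR adjusted p = 0.0465). Of 13 TGF-beta and FOXO genes, which include known inducers of CDK inhibitors, 3 rose in each PRC2 KO, beside 12% and 14.7% of all genes. They were FOXO4 (2.33 and 2.63), TGFBR1 (1.92 and 1.73) and TGFB1 (edgeR adjusted p = 0.00952 and 0.0065). Their part in the values of the CDK inhibitors was not tested. In STAG1 KO TGFBR1 (2.38) and TGFB1 (1.02) were called as well (edgeR adjusted p = 0.0181 and 0.0324), together with FOXO3 (higher, 0.44) and MYC (lower, -0.54), 4 of 13 beside 5.27% of all genes. After knockdown of STAG2, 4 of 13 fell, beside 11% of all genes. They were TGFBR2 (-0.92), SMAD3 (-0.40), FOXO4 (-0.86) and TGFBR1 (-0.97), with limma adjusted p of 6.25e-05, 0.000476, 0.0282 and 0.0307. SMAD3 also fell in STAG2 KO (-0.50, edgeR adjusted p = 0.0324), 1 of 13 called beside 12.2% of all genes. Among 9 genes of the machinery that degrades CDK inhibitors, SKP2, which targets p27, fell in EZH2 KO (-0.60, edgeR adjusted p = 0.0341) and SKP1 in SUZ12 KO (-0.46, edgeR adjusted p = 0.0444). This was 1 of 9 called in each, beside 15.7% and 20.6% of all genes. SKP1 rose in STAG1 KO (0.39, edgeR adjusted p = 0.0465), 1 of 9 beside 5.27% of all genes, and 0 of the 9 were called in STAG2 KO. After knockdown CUL1 and FBXW7 rose (0.26 and 0.26) and CKS1B fell (-0.17), 3 of 9 beside 20.5% of all genes. Proliferation genes showed 1 call of 16 in each PRC2 KO, FOXM1 in EZH2 KO (-0.58, edgeR adjusted p = 0.0314) and MCM7 in SUZ12 KO (-0.60, edgeR adjusted p = 0.0364), a smaller share than the 15.7% and 20.6% of all genes called in these fits. At 9p21, MIR31HG, on the far side of MTAP from CDKN2A, had 0 counts in every control and 23 to 43 in EZH2 KO and 18 to 26 in SUZ12 KO. It was 1 of 2 genes called of 5 neighbours tested in each, beside 15.7% and 20.6% of all genes. The other was KLHL9 in EZH2 KO (0.41, edgeR adjusted p = 0.0472) and ELAVL2 in SUZ12 KO (9.28, edgeR adjusted p = 0.0118). CDKN2A and CDKN2B had 0 counts in every A673 clone library, so no response to PRC2 loss can be read for them.

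CDKN1C lies among imprinted genes, and its neighbour SLC22A18, a transporter gene, varied with it in part. SLC22A18 was at 9.90 to 12.3 CPM in the controls of experiment 1 and at 2.36 and 2.64 CPM in STAG2 KO, and at 2.83 to 5.10 CPM in the controls of experiment 2, 1.31 to 3.70 CPM in STAG2 KO, 4.84 to 14.2 CPM in EZH2 KO and 3.92 to 16.3 CPM in SUZ12 KO. It fell in STAG2 KO (log2 -1.32, edgeR adjusted p = 0.0435) and after knockdown (-0.67, limma adjusted p = 0.00508), where CDKN1C did not pass the test. It was not called in EZH2 KO (1.29, edgeR adjusted p = 0.157) or SUZ12 KO (1.48, edgeR adjusted p = 0.0956). Of the 11p15 neighbours tested, 1 of 6 was called in STAG2 KO, beside 12.2% of all genes. After knockdown 4 of 6 were called (2 higher, 2 lower), beside 20.5%. In each PRC2 KO 1 of 8 was called, IGF2 (higher), beside 15.7% and 20.6%. In STAG1 KO 1 of 6 was called, PHLDA2 (log2 2.50, edgeR adjusted p = 0.0264), beside 5.27%. In STAG1 KO, where the CDKN1C value was below 0, SLC22A18 was at 15.03 to 20.8 CPM against 10.6 and 15.04 CPM (log2 0.47, edgeR adjusted p = 0.259). With each library expressed against the mean of the controls of its own experiment, Pearson's r of SLC22A18 with CDKN1C was 0.880 over the 22 clone libraries, rank 458 of 15830 genes. Among the other neighbours r was 0.746 for IGF2, which had at most 16 counts, 0.585 for CARS1, 0.430 for TH, 0.314 for the antisense RNA KCNQ1OT1, -0.289 for PHLDA2, -0.333 for CD81 and -0.387 for NAP1L4. These correlations were computed after the values had been seen, and the points share controls and clones.

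**Figure D5:**
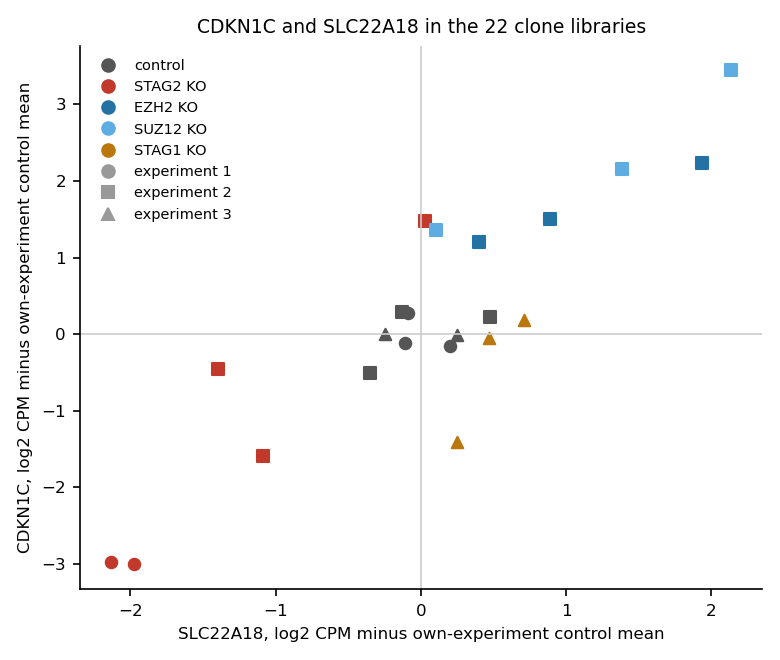
CDKN1C (vertical) against its 11p15 neighbour SLC22A18 (horizontal), each as log2 CPM minus the mean of the controls of the same experiment, for the 22 A673 clone libraries; colour gives the genotype and shape the experiment. The STAG2 KO libraries of experiment 1 lie at the lower left and 4 of the 6 PRC2 KO libraries at the upper right (Pearson's r = 0.880), while EZH2 KO 1, SUZ12 KO 3 and the library labelled STAG2ko 5 of experiment 2 are above the controls for CDKN1C and within their range for SLC22A18.

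Likeness over the 22 clone libraries was measured in the same way for each gene. Those most like CDKN1A were TSPAN13 (r = 0.937), CLEC11A (0.927) and FHAD1 (0.927), and those most like CDKN1C were STON1 (0.976), MAPK13 (0.974) and LRRC75B (0.965). For CDKN1B they were COG6 (0.927), SLC25A36 (0.897) and RAD17 (0.891), for CDKN2C ATG4A (0.793), MGST3 (0.793) and PIP4K2C (0.770), for CDKN2D PTPN22 (0.825), LOC442028 (0.824) and OTULIN (0.821), and for CDKN3 FAM72C (0.863), CCDC121 (0.806) and ATXN1-AS1 (0.802). Among the CDK inhibitors themselves the highest r was 0.655, between CDKN1A and CDKN2D. These values describe libraries that share controls and clones, over 15831 genes, and carry no test.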

How the data were processed

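RNA of 32 samples was measured by single-end sequencing of non-directional oligo-dT libraries. Per the submitters' processing notes, hg38 was the build, SAMtools (0.1.16) and Bowtie (0.12.7) were used, and so was TopHat2 (2.0.0). The counting program and annotation are not given in the sources used here. For all but the knockdown, the authors deposited read counts per gene symbol, without normalization. For the knockdown they deposited a normalized signal, counts divided by 1 factor per library (100% of values came out as whole reads within a tolerance of 1e-6), and 56104 of 60199 Ensembl genes matched a symbol. Columns with values per sample that were left out numbered 0.

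Groups follow the labels; the labels of the STAG2 KO libraries of experiment 1 and of the STAG1 KO libraries give the genotype but not which clone a column holds, so those libraries are named by the number in the table. In R 4.3.3, counts were tested with edgeR 4.0.16 (TMM, filterByExpr, quasi-likelihood test), with 1 joint fit for the 12 libraries of experiment 2, and the knockdown with limma 3.58.1 (trend) on log2(value + 1) for genes with a mean of at least 10. A call means a Benjamini-Hochberg adjusted p below 0.05 across the whole table tested. Isogenic pairs were compared as log2 CPM (prior count 2, genes with at least 10 counts), without a test. Alternatives were DESeq2 1.42.0, other filters, controls, blocks and pseudocounts, and leaving out each library. The procedure was tested on simulated data. Results for 1 gene and its pathway list are not reported here. The genes, lists and tests were chosen with earlier results of these data known. All 8 genes are named, with at most 4 genes of a pathway list (lowest adjusted p) and the 3 genes most like each member. Neighbours of CDKN1C, CDKN2A and CDKN2B were named beyond that rule, after their values were seen. CDKN2A and CDKN2B did not pass the filter in A673.

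Same-numbered siC and siSTAG2 libraries had r of 0.0257, 0.0372 and 0.00402 between their deviations from group means. For same-numbered EZH2 KO and SUZ12 KO libraries r was -0.112, 0.378 and 0.319. The labels give these libraries a shared number and state no other link. In the knockdown, r was best with the library of the same number for each number. Whether the libraries are paired was not settled, and the main tests used no pairing.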

Additional observations from a re-analysis of the deposited data

Results flagged for a closer look

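Of 12 groups of 5 or 6 libraries looked at (the 6 expressed genes in STAG2 KO and in control libraries of experiments 1 and 2), 3 held a library far from the others by Dixon's criterion. Chance alone meets it in about 1 group in 20 when the libraries are independent draws from a single population. These groups pool experiments whose controls differed, so that rate does not apply to them. CDKN1A was at 73.6 CPM in the library labelled STAG2ko 24 of experiment 1, with the other STAG2 KO libraries at 6.47 to 24.7 CPM. CDKN1B was at 53.4 CPM in the parental library of experiment 2, with the other controls at 75.4 to 87.2 CPM. CDKN1C was at 4.49 CPM in the library labelled STAG2ko 5 of experiment 2, with the others at 0.442 to 1.102 CPM.

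Differences of opposite sign were found between the isogenic pairs, for CDKN2D (log2, without minus with STAG2, -0.48 in SK-N-MC and 0.47 in A4573) and for CDKN3 (-1.05 and 1.07). With 1 library a line, the difference between the pairs was not tested.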

How the results depend on the processing

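Over 53 results and 512 alternatives, 440 kept the direction and the side of the threshold, 13 reversed, 19 lost and 12 gained a call, and 28 moved; the cause was not tested. In STAG2 KO the number of CDK inhibitors called was 0 to 1 on leaving out a library (CDKN1C without STAG2ko 5 of experiment 2) and 2 in experiment 1 alone. Reversed values were uncalled. For CDKN1A they were -0.32 in experiment 2 alone, -0.14 with the WT clone as the only control, -0.052 without the parental library of experiment 1 and -0.36 without STAG2ko 24, within -0.36 to 0.31 over left-out libraries. For CDKN1B they were 0.33 in experiment 2 alone and 0.044 without STAG2ko 24 (-0.25 to 0.044 over left-out libraries), and for CDKN1C 0.41 in experiment 2 alone. For CDKN3 they were 0.19 in experiment 2 alone, 0.049 with the WT clone only, 0.065 with no experiment term, and 0.090 and 0.064 without the parental library or STAG2ko 24 of experiment 1 (-0.078 to 0.090 over left-out libraries). In STAG1 KO CDKN1C was 0.083 without STAG1ko 1 (-0.57 to 0.083 over left-out libraries). With the WT clone as the only control 1 gene was called in EZH2 KO and 1 in SUZ12 KO, CDKN1A in both. A fit of only the compared groups called 3 in EZH2 KO (CDKN1C added), and DESeq2 called 3 in SUZ12 KO (CDKN2D added). Leaving out libraries gave 1 to 2 genes in EZH2 KO, 1 to 2 in SUZ12 KO, 1 to 2 between PRC2 KO and STAG2 KO, 0 to 1 in STAG1 KO, 0 to 1 between STAG2 KO and STAG1 KO effects, and 1 to 2 between WT clone and parental line. DESeq2 called 3 between PRC2 KO and STAG2 KO and 1 between STAG2 KO and STAG1 KO effects. Over all genes, calls ranged from 494 to 4219 in STAG2 KO (1736 as reported), 1169 to 3429 in EZH2 KO (2377), 1874 to 4378 in SUZ12 KO (3112), 3139 to 6601 between PRC2 KO and STAG2 KO (4495), 0 to 1935 in STAG1 KO (757), 174 to 1861 between their effects (904), 104 to 962 between controls (399) and 1750 to 2881 after knockdown (2476, and 2503 with edgeR on recovered reads). With the replicate number as a block, CDKN2D stayed called after knockdown (0.49, 2881 genes), and with the clone number as a block EZH2 KO and SUZ12 KO differed for 0 genes (CDKN1A 0.46, CDKN1C -0.68); these blocks changed no call of the 6 genes. In A4573, scaling by library size alone moved CDKN1B from 0.34 to 0.26. Leaving out a library that leaves 1 control assumes that it varies like the other group. Depth limits CDKN1C most, with 8 to 86 counts in STAG2 KO libraries of experiment 2.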

Other observations

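The 11p15 neighbours of CDKN1C differed between the lines. In A4573, 7 of 11 measured neighbours were more than 2-fold lower in the library without STAG2 (median log2 difference -2.08, against 0.00 over all genes), among them KCNQ1 (162 counts, against 768 with STAG2 restored), SLC22A18 (50 against 227), PHLDA2 (17 against 132) and CARS1 (4173 against 10355), while CDKN1C itself had 1058 and 872 counts. In SK-N-MC the imprinted RNA H19 had 119 counts in STAG2 KO and 1415 in WT, and PHLDA2 116 and 290, while CD81 had 7862 and 5490 and CARS1 2402 and 1639, and the median log2 difference of the 8 measured neighbours was 0.38. H19 ran the other way in A4573, with 387 counts without STAG2 and 205 with STAG2 restored. In A673 clones H19 had at most 1 count and KCNQ1 at most 2. With 1 library a line these are values of single libraries. The genes named here were chosen from the list of neighbours after their values had been seen.

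The order of the genes per exonic kb, which rests on the same annotated lengths, also differed by line. In both SK-N-MC libraries CDKN2C (75.7 CPM per kb in WT, 77.9 in STAG2 KO) and CDKN2A (41.8 and 44.5) stood highest. In A4573 CDKN2C stood highest without STAG2 (36.9 CPM per kb). With STAG2 restored it was at 7.48, under CDKN2A (13.8), CDKN1C (11.2), CDKN1B (9.31) and CDKN3 (9.26).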
